A study of Drosophila melanogaster with 2 samples.

Results

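The regions described here are reproducible peaks of a tagged homeodomain protein that lay beside a gene start rather than on it. They were the peaks of the authors' reproducible list whose summit, the point of highest signal, was more than 250 and up to 1000 bp from the nearest protein-coding transcription start site (TSS), leaving out summits with TSSs of a diverging gene pair within 1 kb. The rule kept 367 of 2433 reproducible peaks (15.1%), and it used positions only, not signal. They are called offset peaks below.

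Chromatin immunoprecipitation sequencing (ChIP-seq) was done with an anti-GFP antibody on whole Drosophila melanogaster embryos aged 0 to 24 h, males and females pooled. The embryos came from a stably transgenic line in which GFP is joined to the C-terminal end of CG9876, and the sequences that drive the transgene are not given in the labels. Both samples, biological replicates 1 and 2, belong to the single group CG9876-GFP, with no treatment and no second genotype. Each library pools all embryonic stages and all tissues, so that a peak in few cells cannot be told apart from weak occupancy in many.

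Genes are read from a core promoter around the TSS, where RNA polymerase II is assembled, and the sequence on either side can hold proximal elements and enhancers that set where and when the gene is active. Many long Drosophila genes use several promoters, so that an internal TSS lies within the introns of a longer transcript. CG9876 encodes a homeodomain protein of the paired-like class, and such proteins read short A/T-rich sites around the letters TAATTA. The DRE and the BEAF-32 core within it are elements of broadly active promoters, while GAGA repeats are bound by GAGA factor, which keeps promoters of developmental genes open.

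The sequences below are 6 windows at named offset summits, shown because they carry motifs counted further on. They were taken in order of signal among windows with a searched motif, leaving out windows that overlap an untranslated region or a coding exon and those of 1 chromosome arm, which is not shown here. Stronger summits with a motif, such as those of HmgZ, CG14762 and CG6966, were left out in this way. Each is the dm6 reference, plus strand, from 100 bp before to 100 bp after the summit, and capitals mark matches to any of the 19 motifs searched on both strands. The Lk6 window (chr3R:11760963-11761163) lies in an intron, 984 bp upstream of an internal TSS, and holds 3 GAGAG matches and the E-box CATATG. The CG9663 window (chr2L:3302069-3302269) lies 961 bp downstream of its TSS in the gene's own intron. The Rtnl1 window (chr2L:4997543-4997743) is 262 bp upstream of an internal TSS. The cbt window (chr2L:479977-480177) is 389 bp upstream of its TSS in an intron of another gene. The mub window (chr3L:21880389-21880589) is 912 bp downstream of its TSS in an intron. The CG9743 window (chr3R:30203373-30203573) lies between genes, 475 bp upstream of its TSS, with 4 GAGAG matches and 1 BEAF-32 core. CTCTC and TATCG in capitals are GAGAG and the BEAF-32 core CGATA read on the other strand, GCCATCTT in the cbt window is a match to the Pho motif, and TATAAA in the Rtnl1 window is the TATA-box word. None of the 6 holds TAATTA or a DRE.
Lk6: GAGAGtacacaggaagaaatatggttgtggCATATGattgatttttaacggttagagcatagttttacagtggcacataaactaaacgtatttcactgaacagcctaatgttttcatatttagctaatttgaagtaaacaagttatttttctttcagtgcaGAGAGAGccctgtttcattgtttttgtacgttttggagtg
CG9663: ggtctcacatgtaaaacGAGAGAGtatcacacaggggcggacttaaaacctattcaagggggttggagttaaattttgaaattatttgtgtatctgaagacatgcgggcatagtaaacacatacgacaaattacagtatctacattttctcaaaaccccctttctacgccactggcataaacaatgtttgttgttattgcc
Rtnl1: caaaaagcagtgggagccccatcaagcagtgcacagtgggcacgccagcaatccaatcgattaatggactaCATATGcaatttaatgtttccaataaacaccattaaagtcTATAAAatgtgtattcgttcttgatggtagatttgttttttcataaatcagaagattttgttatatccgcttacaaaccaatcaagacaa
cbt: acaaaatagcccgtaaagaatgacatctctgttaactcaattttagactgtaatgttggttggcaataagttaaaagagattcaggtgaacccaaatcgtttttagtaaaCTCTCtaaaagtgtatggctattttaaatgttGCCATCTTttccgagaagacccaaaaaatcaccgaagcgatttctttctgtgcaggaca
mub: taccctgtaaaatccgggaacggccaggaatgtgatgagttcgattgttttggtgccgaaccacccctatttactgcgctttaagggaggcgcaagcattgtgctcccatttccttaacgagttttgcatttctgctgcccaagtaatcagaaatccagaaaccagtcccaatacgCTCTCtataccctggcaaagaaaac
CG9743: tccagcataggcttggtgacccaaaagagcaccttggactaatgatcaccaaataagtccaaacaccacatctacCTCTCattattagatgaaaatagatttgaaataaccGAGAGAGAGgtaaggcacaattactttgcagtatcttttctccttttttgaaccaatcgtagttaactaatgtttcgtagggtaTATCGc

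Offset summits lay mostly upstream of the nearest TSS, though many of these were inside the gene, as given below. Of the 367, 253 were upstream of the TSS (68.9%, 95% Clopper-Pearson interval 63.9 to 73.6) and 114 were downstream. The interval covers counting over peaks only, since peaks are not replicates. By the same rule on the strongest regions of each replicate alone, as many as the reproducible list holds (2433), 264 of 379 offset regions were upstream in replicate 1 (69.7%) and 258 of 392 in replicate 2 (65.8%), a mean of 67.7% ± 2.72 (SD, n = 2). Over all reproducible peaks the share was 65.7%, close to that of offset peaks, with 83.6% of peaks within 250 bp of a one-direction TSS and 30.5% of peaks over 1 kb from a TSS inside a gene. Among the lower-ranked candidates, which are regions of the combined list that overlap no reproducible peak, 1667 of 4638 at offset positions were upstream (35.9%). The next-ranked 2350 candidates stood between, with 195 of 410 upstream (47.6%).

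The upstream share fell with distance from the TSS. In bins of 150 bp it was 91.4% of 116 peaks up to 400 bp, 71.6% of the next 81 up to 550 bp and 61.9% of 63 up to 700 bp. It was 56.0% of 50 peaks up to 850 bp and 38.6% of 57 up to 1000 bp. Lower-ranked candidates had no such gradient, with upstream shares of 34.2% to 41.4% in the same 5 bins. Upstream summits lay at a median of 450 bp from the TSS (interquartile range 330 to 649) and downstream summits at 697.5 bp (506 to 880). In the nearest 50 bp of the range, up to 300 bp, 41 of 42 summits were upstream.

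**Figure D1:**
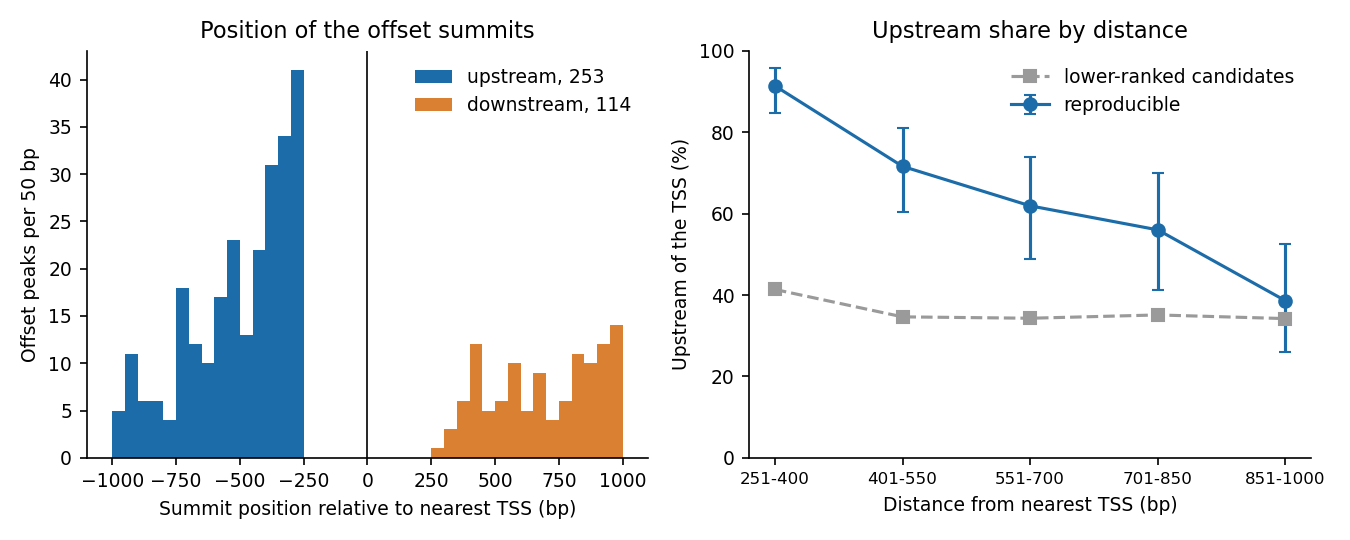
Left, offset peaks per 50 bp by signed distance of the summit from the nearest TSS in bp, with negative values upstream (blue, 253 peaks) and positive values downstream (orange, 114 peaks). Right, the share of summits upstream of the TSS in 5 distance bins for offset peaks (blue, bars are 95% Clopper-Pearson intervals) and for lower-ranked candidates (grey). The blue points fall from 91.4% to 38.6%, while the grey points stay between 34.2% and 41.4%.

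Most offset summits lay in introns. An intron of the same gene held 194 of 367 summits (52.9%), sequence between genes held 119 (32.4%), an intron of another gene 28, a 5' UTR of the same gene 18, a coding exon 7 and a 3' UTR of another gene 1. Of the upstream summits, 107 lay in an intron of their own gene (42.3% of 253). Their nearest TSS is an internal one by definition, since the gene must begin further upstream. Of the 114 downstream summits, 87 were in an intron of the gene (76.3%), 13 in its 5' UTR and 7 in a coding exon (6.14%). The coding-exon share of downstream summits was 13.0% in the strongest regions of replicate 1 and 7.46% in those of replicate 2, a mean of 10.3% ± 3.95 (SD, n = 2). It was 37.2% among next-ranked candidates and 63.0% among all lower-ranked ones.

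**Figure D2:**
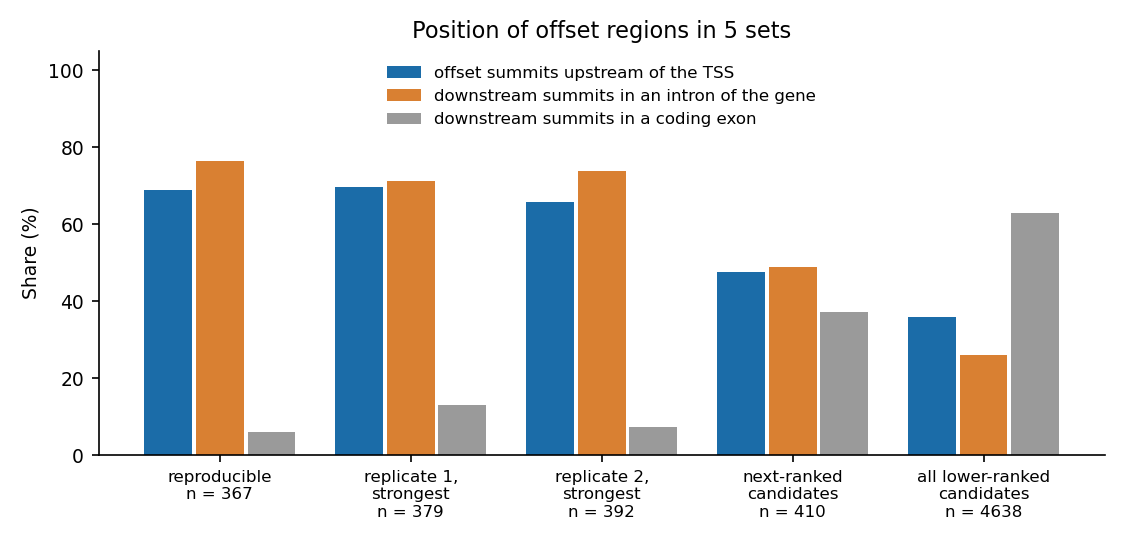
Bars give, for offset regions of 5 sets, the percent upstream of the TSS (blue), the percent of downstream summits in an intron of the gene (orange) and the percent of downstream summits in a coding exon (grey). The reproducible peaks and the strongest regions of each replicate had blue bars of 65.8% to 69.7% and grey bars of 6.14% to 13.0%, while all lower-ranked candidates had a blue bar of 35.9% and a grey bar of 63.0%.

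The genes beside offset peaks were long and had several promoters. The 367 peaks were nearest to 357 TSSs of 345 genes, 2.47% of 13945 protein-coding genes. Gene length and the share with more than 1 TSS were first taken with each gene counted once, over 337 offset genes rather than 345. The median gene length was 10733 bp. It was 5127.5 bp for 536 genes of peaks within 250 bp of a one-direction TSS, here called core peaks. For 686 genes of peaks at diverging pairs it was 2862.5 bp. The median over all protein-coding genes was 2166 bp. Genes with more than 1 TSS made up 62.0% of offset genes, 55.8% of core genes and 26.5% of all genes. The nearest TSS was an internal one at 165 offset peaks (45.0%), against 30.1% of core peaks and 29.9% of all reproducible peaks. Peaks over 1 kb from a TSS inside a gene were nearest to longer genes still (a median of 19870 bp per peak, against 11888 bp for offset peaks). Their shares of genes with more than 1 TSS (61.4%, against 64.9% per offset peak) and of internal nearest TSSs (47.7%) were close to those of offset peaks. A longer gene has more sequence near an internal TSS, and its part in these shares was not tested.

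The offset peaks occurred on all 6 chromosome arms, with 75 on 2L, 68 on 2R, 63 on 3L, 79 on 3R, 79 on X and 3 on chromosome 4. On X they made up 18.1% of reproducible peaks (95% Clopper-Pearson interval 14.6 to 22.1), and on the other large arms 13.2% to 15.9%. Another reproducible summit lay within 1 kb of 68 offset summits (18.5%), against 10.2% of all reproducible summits. The smallest such distance was 199 bp, less than the interval of 370 bp around most summits, so neighbouring summits are not always separate regions. In 36 cases (9.81%) a reproducible peak also sat within 250 bp of the same TSS. At the other end, 167 offset summits (45.5%) were over 10 kb from any other reproducible summit.

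Signal at offset peaks was in the range of the whole reproducible list. The signal is the authors' deposited linear value for each region, and its scale is not given in the sources used here. Its combined median was 137.5 (interquartile range 103.1 to 194.5), with 68.7 in replicate 1 and 67.0 in replicate 2. Over all reproducible peaks the medians were 128.1, 67.1 and 64.2. Upstream summits had medians of 142.0 combined, 71.4 in replicate 1 and 69.7 in replicate 2, and downstream summits had 122.0, 61.9 and 63.2. The upstream median was higher in each of the 3 lists, and the interquartile ranges of the sides overlapped in each.

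Both replicates listed most offset peaks. The reproducible list was made from these same replicates and selected for their agreement, which largely set how often both listed its peaks. Of the 367 summits, 354 fell in a candidate region of replicate 1 and 365 in one of replicate 2. Among the 2433 strongest regions of replicate 1 were 308 offset summits (83.9%), where the share over all reproducible peaks was 83%. Replicate 2 held 307 (83.7%) among its strongest 2433, where the share over all was 82%. Both held 252 (68.7%), where the share over all was 66.9%, so that offset peaks were recovered about as often as the list as a whole. Recovery by both was 73.1% for upstream summits (95% Clopper-Pearson interval 67.2 to 78.5) and 58.8% for downstream summits (49.2 to 67.9). In only 4 cases was the summit outside the strongest regions of both.

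The place of the summit was also shared between the replicates. Where both listed a region, the summits of the replicates were a median of 25 bp apart (n = 352), and 267 pairs (75.9%) were within 50 bp. The summit of replicate 1 was on the same side of the TSS in 354 of 354 regions, and that of replicate 2 in 365 of 365. Each replicate region had to contain a combined summit over 250 bp from the TSS, so the matching largely set these counts. It also limited how far apart the summits could lie. The rule for offset summits held at both replicate summits in 331 of 352 regions (94.0%). These 352 peaks share their libraries, are not independent and come from a list selected for agreement between the replicates. Across them the Spearman rank correlation between the signals was 0.59 and Pearson's r of the log2 signals was 0.71. The log2 ratio of replicate 1 over replicate 2 had an SD of 0.61.

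**Figure D3:**
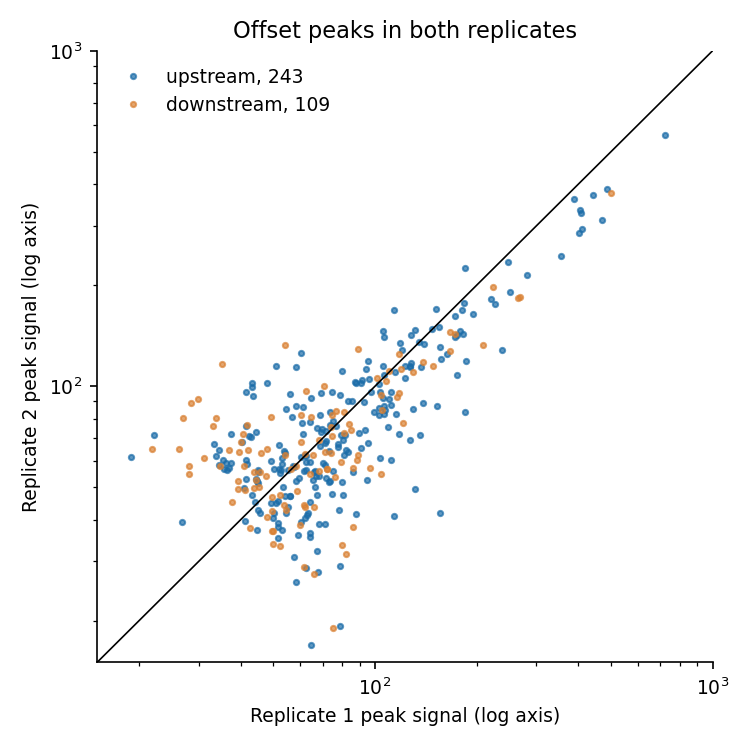
Each point is 1 of 352 offset peaks listed in both replicates, by its deposited peak signal in replicate 1 (x axis) and replicate 2 (y axis), both on log axes, in blue upstream and in orange downstream of the TSS. The line marks equal values. All points above 250 in replicate 1 lie below the line, and below a signal of about 100 the points scatter widely on both sides.

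The strongest offset peak was at Lk6, a kinase of the MNK family that phosphorylates the translation factor eIF4E. Its signal was 1283 combined, 722 in replicate 1 and 562 in replicate 2, and it ranked 4 among all reproducible peaks, 4 in replicate 1 and 5 in replicate 2. Of the 25 strongest offset peaks, 21 were upstream and 4 downstream (CG9663, mub, LPCAT and CG31635), 14 were in an intron of the gene and 9 lay between genes. All 25 were among the strongest 2433 regions of both replicates, and their lowest rank was 241 in replicate 1 and 271 in replicate 2. The signal of replicate 1 was above that of replicate 2 in 23 of the 25, the exceptions being mrj and the weaker of the HmgZ pair, against 207 of 352 offset peaks listed in both.

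**Figure D4:**
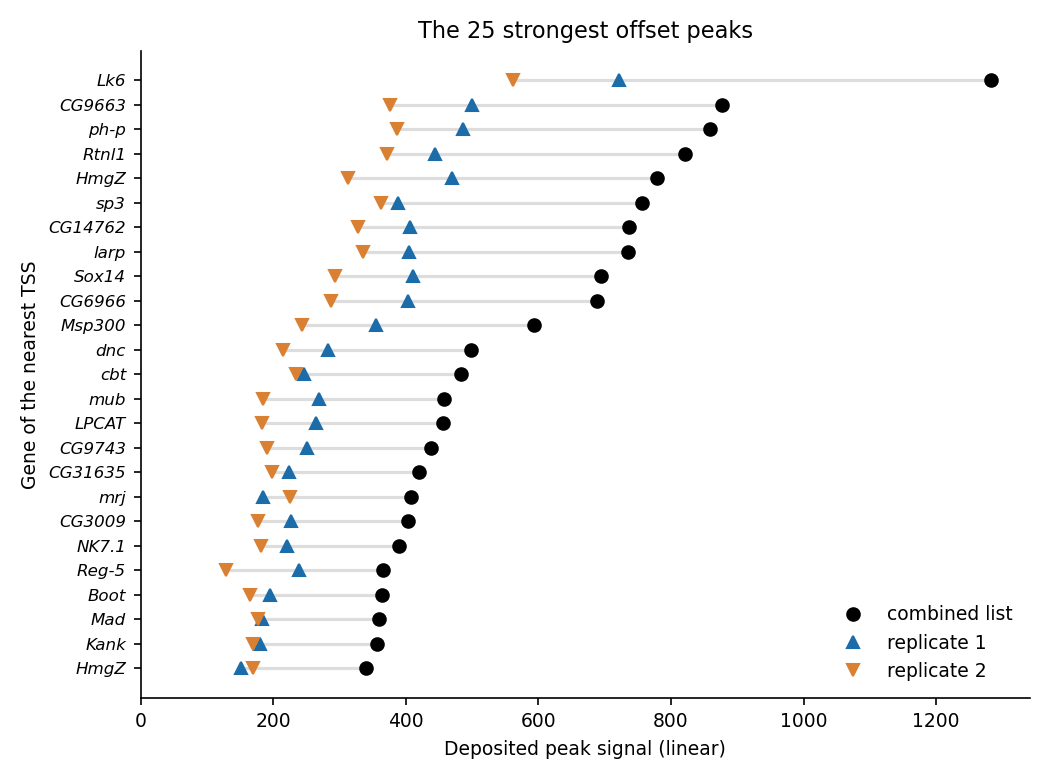
Deposited peak signal (x axis, linear) of the 25 strongest offset peaks in the combined list (black), replicate 1 (blue) and replicate 2 (orange), with the gene of the nearest TSS on the y axis. Lk6 stands highest in all 3 lists at 1283, 722 and 562, and the remaining 24 combined values run from 877 down to 340.

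After Lk6 came CG9663 (signals of 877 combined, 499.7 in replicate 1 and 377 in replicate 2). ph-p, which encodes a subunit of Polycomb repressive complex 1, had signals of 859, 486 and 387 at a summit in its own intron, 480 bp upstream of an internal TSS. Rtnl1, a reticulon that shapes the endoplasmic reticulum, had signals of 821, 443 and 372. These 4 genes held the same order in replicate 1 as in the combined signal, whereas ph-p stood above CG9663 in replicate 2.

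HmgZ, an HMG-box protein that bends DNA, had a summit with signals of 779 combined, 469 in replicate 1 and 312 in replicate 2. Peaks of similar strength were nearest to sp3 (756, 388 and 363), CG14762 (737, 406 and 328) and larp (735, 406 and 336), the last a La-related RNA-binding protein that acts on translation. All of these were upstream of their TSS, at 330 to 651 bp. Sox14, an HMG-box transcription factor of the ecdysone response, followed with 694, 410 and 293, its summit 262 bp upstream and between genes. CG6966, at 261 bp upstream, had 688, 403 and 287.

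Further down came genes of muscle, memory and transcription. Msp300, a nesprin that positions nuclei and organelles in muscle, had signals of 594 combined, 355 in replicate 1 and 244 in replicate 2. The peak at dnc, the cAMP phosphodiesterase dunce, had 498, 282 and 215 and lay in a 5' UTR of the gene. That at cbt, a zinc-finger transcription factor, had 484, 247 and 235. In each of these the higher value was that of replicate 1. mub, a KH-domain RNA-binding protein that acts on splicing, had 458, 269 and 184, and LPCAT, a phospholipid acyltransferase, had 457, 265 and 183. The homeobox gene NK7.1 had 390, 220.1 and 182, and Mad, the SMAD that carries the BMP signal to the nucleus, had 359, 183 and 176. The other members of the 25, which were CG9743, CG31635, mrj, CG3009, Reg-5, Boot, Kank and the second summit of HmgZ, had combined signals of 340 to 438.

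Single genes could hold several offset peaks. Rtnl1 had 4, with combined signals of 820.7, 302.5, 96.0 and 85.8, each 254 to 429 bp upstream of a different TSS, and the weakest was not listed in replicate 1. dnc had 3 (498, 173 and 121), again each upstream of its own TSS, at 268 to 372 bp. HmgZ had 3 (779, 340 and 101), of which the first 2 share 1 interval of 491 bp. CAP, an adaptor of cell-matrix adhesion, had 3, and the weakest differed most between replicates, with 28.4 in replicate 1 and 89.4 in replicate 2. A further 21 genes or shared TSSs had 2, among them elav (249 and 210), ph-p (859 and 148) and nej (113 and 98.6), the CBP acetyltransferase.

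The limits of the rule cut through a continuous range of distances. Just inside the inner limit were Gart, 1 bp past the limit upstream (signal 142), and Rtnl1, 254 bp upstream (302), and just outside were NimC4 and Cad96Cb, both 250 bp upstream (109 and 103). At the outer limit sau, 993 bp downstream (99.2), and Ctl2, 990 bp downstream (93.0), were inside, and CG13917, 1003 bp downstream (171), and Tob, 1004 bp upstream (161), were outside. No interval of an offset peak covered the nearest TSS (0 of 367, which allows up to 1.00% by the 95% Clopper-Pearson interval), a result that the fixed interval of 370 bp around most summits and the inner limit set between them.

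Genes with an offset peak were spread over signalling, polarity, neural and RNA-binding lists, which also held genes with core peaks. The lists were chosen with earlier results of these data known. Of 25 gene lists, 19 held at least 1 gene with an offset peak and 6 held none, where 2.47% of all protein-coding genes had one. A core peak was at 3.96% of all protein-coding genes. Core genes numbered 8 against 5 offset genes in the insulin, TOR and growth list, 5 against 2 in the Notch list and 6 against 6 in the polarity list. In the RNA control list they were 4 against 8, and in the neural list 3 against 6. No cytosolic ribosomal protein gene of 89 had an offset peak, while 20 had a core peak and 43 a peak at a diverging pair. The other lists with none were mitochondrial ribosomal proteins (73 genes), proteasome subunits (48), chemoreceptors (179), heat shock proteins and chaperones (28) and insulator proteins (22). In lists of this size a share of 2.47% corresponds to few genes. A count of 0 therefore says little in most of them, the 89 cytosolic ribosomal protein genes included.

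Genes of RNA control and the germ plasm had the highest count, 8 of 58 (13.8%). They included mub, elav, a neuronal RNA-binding protein (signals of 249 combined, 120 in replicate 1 and 128 in replicate 2), brat, a translational repressor (192, 106 and 82.4), and shep (122, 72.2 and 56.5). Cell polarity and adhesion genes had 6 of 45, with brat, ed (152, 73.5 and 76.5), dlg1 (123, 85.7 and 37.9) and rhea, the talin gene (118, 58.7 and 48.5). In dlg1 the replicates differed by more than the SD of the log2 ratio, and in ed they were nearly equal.

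Signalling genes were represented at several levels of their pathways. In the insulin, TOR and growth list 5 of 36 genes had an offset peak: Lk6, the insulin receptor InR (255, 106 and 146), the repressor Mnt (121, 62.2 and 59.6), the lipid kinase Pi3K92E (115.3, 65.9 and 43.5) and the kinase Pdk1 (87.3, with no region in replicate 1 and 44.0 in replicate 2). In the EGFR, FGF and Ras list 4 of 36 had one: the kinase Raf (244.5, 118 and 124), the Ras inactivator RasGAP1 (240.4, 60.4 and 125), the ligand spi (173, 89.7 and 72.5) and the repressor aop (103, 55.2 and 56.2). InR, Raf and RasGAP1 were higher in replicate 2, unlike most of the strongest peaks.

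Of 58 Wnt, Hedgehog and BMP genes, 4 had an offset peak, of which Mad, the repressor brk (165, 95.5 and 67.7) and the receptor wit (90.2, 26.3 and 64.8) belong to the BMP branch, and the kinase sgg (115.2, 41.7 and 76.5) to Wnt signalling. The JNK and cell death list had 4 of 31: the caspase inhibitor Diap1 (157, 83.6 and 76.9), the kinase Tak1 (135, 79.7 and 51.9), the death inducer hid (121, 54.0 and 63.3) and the receptor wgn (98.0, 45.0 and 51.3). The Hippo list had 3 of 22, which were dco, a casein kinase (287, 175 and 108), the cadherin ds (149, 61.3 and 86.7) and kibra (98.9, 49.97 and 36.9). The Notch list had 2 of 31, E(spl)m3-HLH (141, 77.5 and 65.8) and E(spl)m7-HLH (87.3, 22.2 and 71.5), and the JAK-STAT list had Stat92E (114, 33.8 and 80.5) as 1 of 15. For wit, E(spl)m7-HLH and Stat92E the value of replicate 1 was below that of replicate 2 by more than 1 on the log2 scale.

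The Polycomb and trithorax list had 4 of 41, which were ph-p, its neighbouring paralog ph-d (158, 113 and 40.9), the DNA-binding protein pho (96.6, with no region in replicate 1 and 42.9 in replicate 2) and the remodeller kis (91.3, 36.9 and 57.1). ph-p and ph-d are tandem copies with similar sequence, so that reads of one could have been placed at the other. Neural and glial genes had 6 of 48, led by elav, Gs2 (202, 101.6 and 105.9), brat and lola (178, 87.2 and 103). Muscle genes had 3 of 30, which were Msp300, the titin-like sls (223, 114.6 and 110.2) and the T-box gene org-1 (97.6, 51.6 and 45.4). Nuclear receptor and ecdysone genes had 3 of 35, which were Eip63F-1 (209, 108 and 103), Hnf4 (99.3, 36.1 and 59.1) and ftz-f1 (88.9, 49.6 and 36.9).

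Of 94 homeobox genes, the class of the tagged protein, NK7.1 alone had an offset peak (1.06%), a count too small to set apart from the 2.47% of all protein-coding genes. In the segmentation list 2 of 47 had one, ush (200.0, 106 and 91.9), a zinc-finger cofactor of GATA factors, and brk. A list of 7 genes, GATA factors with ush and cbt added, had offset peaks at ush and cbt and core peaks at 2 genes. The circadian list of 14 had offset peaks at dco, sgg and nej, and of 44 cell cycle genes Cdk4 had one (162, 94.9 and 52.5).

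Some offset summits were close to the start of a gene that makes no protein. A TSS of another biotype lay within 250 bp of 14 summits (3.81%), against 3.16% of all reproducible peaks, and 12 of the 14 were ncRNA genes and 2 snRNA genes. The strongest was the Reg-5 peak (365 combined, 238 in replicate 1 and 129 in replicate 2), 110 bp from asRNA:CR43257 and 287 bp from Reg-5. The Boot peak (364, 195 and 164) was 78 bp from Uhg4, and the Act5C peak was 213 bp from lncRNA:CR45668. Of the 367 summits, 2 lay in an annotated transposable element.

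Offset summits, like the other reproducible peaks, were A/T-rich, and few of them held a DRE. Median GC content within 100 bp of the summit was 38.3% (interquartile range 35.1 to 42.8), against 38.8% over all reproducible summits, 38.3% at diverging-pair summits, 40.8% at core summits and 51.2% at lower-ranked offset candidates. In the strongest regions of each replicate it was 38.3% and 38.8%, a mean of 38.6% ± 0.35 (SD, n = 2). The difference from core summits was larger than that SD, and the interquartile ranges overlapped.

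The DRE, TATCGATA, was found at 3 of 367 offset summits (0.817%, 95% Clopper-Pearson interval 0.169 to 2.37), which were those of Hs3st-A, Dpm3 and cnc. It was found at 8.11% of core summits, 14.1% of diverging-pair summits and 6.04% of all reproducible summits. At the TSSs of the offset peaks themselves it was in 3.36% of 357 windows, and over all TSSs in 6.45% of 19252. Away from TSSs it was rare in general, at 1.46% of all positions 500 bp upstream of a TSS and 0.312% of those 500 bp downstream. Summits over 1 kb from a TSS had it in 0% inside a gene and 0.361% between genes. The BEAF-32 core CGATA, which lies within the DRE, was at 24.5% of offset summits, 41.6% of core summits and 30.0% of the TSSs of offset peaks. All positions 500 bp upstream and downstream of a TSS had CGATA in 24.3% and 21.6%. Summits over 1 kb from a TSS had it in 22.2% inside a gene and 22.4% between genes, both close to offset summits. Ohler motif 1, GGTCACACT, was at 1 offset summit (0.272%), the same Dpm3 summit, and at 4.50% of core summits. In the strongest regions of each replicate the DRE share was 0.651% ± 0.199 and the CGATA share 21.4% ± 1.43 (mean and SD, n = 2).

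The GAGA repeat, GAGAG, was at 33.5% of offset summits (95% Clopper-Pearson interval 28.7 to 38.6), at 32.0% of upstream and 36.8% of downstream ones. All reproducible summits had it in 25.7%, summits over 1 kb from a TSS inside a gene in 31.2%, core summits in 25.4%, diverging-pair summits in 17.2% and lower-ranked offset candidates in 27.2%. The offset regions of the replicates had it in 32.9% ± 0.05 (mean and SD, n = 2). Among all windows of that length, it was in 20.4% of those 500 bp upstream of a TSS and 22.7% of those 500 bp downstream. The repeat was more frequent at the TSSs of the offset peaks (46.2%) than at their summits. All TSSs had it in 24.99% and the TSSs of core peaks in 34.2%. Within the 500 bp around offset summits, GAGAG matches numbered 122 within 50 bp of the summit, 141 at 50 to 100 bp, 217 at 100 to 150 bp, 193 at 150 to 200 bp and 173 at 200 to 250 bp. The repeat was thus less frequent at the summit itself than in its flanks. Signal was similar with and without a match, with combined medians of 135.6 and 137.6.

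The homeodomain core TAATTA was at 25 offset summits (6.81%, 95% Clopper-Pearson interval 4.46 to 9.89). The share was 12.1% at core summits, 13.7% at diverging-pair summits and 11.3% over all reproducible summits. At summits over 1 kb from a TSS the share was 11.5% inside a gene and 9.03% between genes. It was 13.5% over all positions 500 bp upstream of a TSS and 8.02% over those 500 bp downstream. The TSSs of the offset peaks had it in 6.72% and lower-ranked offset candidates, whose GC content was higher, in 6.40%, both close to the offset summits. The replicates gave 8.04% ± 0.18 (mean and SD, n = 2). The median signal with and without a match was 120 and 138 combined, 59.2 and 69.7 in replicate 1 but 74.3 and 66.0 in replicate 2, so that its direction differed between the replicates. The paired homeodomain palindrome, a pair of TAAT sites in opposite orientation, was at 7 offset summits (1.91%), all upstream. Among the 253 upstream summits this was 2.77% (95% Clopper-Pearson interval 1.12 to 5.62), against 1.91% of all positions 500 bp upstream of a TSS. None of the 114 downstream summits had it, against 0.971% of all positions 500 bp downstream. No match says only that these letters were not in the window.

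Other motifs differed less or unevenly. The TATA-box word TATAAA was at 25.9% of offset summits, 22.9% of core summits and 25.4% of all positions 500 bp upstream of a TSS. The E-box CATATG was at 9.81% of offset summits against 5.41% of core summits, but the replicates had it in 6.60% and 10.7%, a mean of 8.66% ± 2.91 (SD, n = 2). Summits over 1 kb from a TSS had CATATG in 8.87% inside a gene and 8.30% between genes, close to offset summits. The E-box CAGCTG was at 7.90% of offset summits, 13.0% of core summits and 10.9% of the TSSs of offset peaks. Matches to the GATA site AGATAA (12.5%), the ETS word CCGGAA (5.99%), AP-1 TGANTCA (3.81%), Pho GCCATNTT (3.27%), Su(H) GTGGGAA (2.72%), Zelda CAGGTAG (0.272%) and the cAMP response element TGACGTCA (0%) stood beside 11.96%, 6.25%, 4.32%, 4.48%, 2.42%, 0.822% and 0.493% over all reproducible summits, in the same order. The E-box CACGTG (5.45%), the Bicoid-type word GGATTA (7.36%) and the CA repeat CACACACA (4.90%) stood beside 3.21%, 6.33% and 4.23%.

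**Figure D5:**
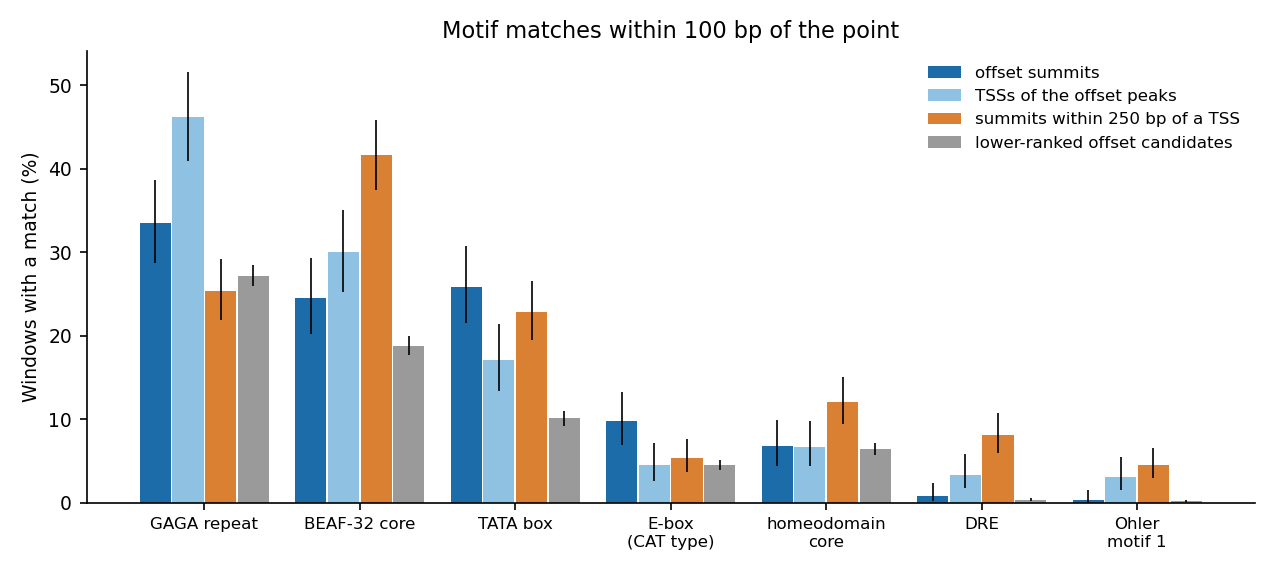
Bars give the percent of windows (100 bp on either side) with a match to 7 motifs, for offset summits (blue), the TSSs of the same peaks (light blue), core summits (orange) and lower-ranked offset candidates (grey), with 95% Clopper-Pearson intervals. GAGA repeats are at 33.5% of offset summits and 46.2% of their TSSs, and the DRE is at 0.817% of offset summits and 8.11% of core summits.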

How the data were processed

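Anti-GFP ChIP-seq of CG9876-GFP embryos (0 to 24 h, 2 biological replicates, 1 group) was deposited as narrowPeak lists. Per the deposited text files, candidate regions were called on each replicate and on both combined, each with a control, and the reproducible list was derived from these by irreproducible discovery rate. Read depth, aligner and peak caller: not given in the sources used here. No depth-based interval is therefore given, and the control libraries were not analysed here. The deposited signal of a region is the authors' own linear value, used only to describe, rank and filter regions. The deposited −log10 of the authors' q-value was read but not used for any result. Lists in the older build dm3 were not used. All positions are in dm6, counted from 1.

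Summits were assigned to the nearest protein-coding TSS of Ensembl release 115. A diverging pair had its leftmost minus-strand TSS at or left of its rightmost plus-strand TSS within 1 kb of the summit. A replicate held a peak when 1 of its regions contained the summit, and the spread came from the 2433 strongest regions of either replicate (mean ± SD, n = 2). Motifs were matched in the dm6 RefSeq sequence within 100 bp of a point. Shares have 95% Clopper-Pearson intervals, which cover counting error only. With 1 group no test between groups was possible and none was made over peaks, which are not replicates, so p-values are absent.

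Named genes are those of the 25 strongest offset peaks, up to 4 per gene list by signal, those with 3 or more offset peaks, and the 2 nearest each distance limit. Genes named for a DRE, and ncRNA neighbours, were named after their values were seen. The members, gene lists and motifs were chosen with earlier results of these data known. The result of 1 gene list is not reported here. The alternatives were a stricter list, each replicate alone, other distance limits, gene models, motif windows and overlaps. The calculations ran in Python 3.11.15 with pandas 2.3.3, numpy 2.4.6, scipy 1.17.1 and, for plots, matplotlib 3.10.9. The assignment and motif search were tested on simulated data.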

Additional observations from a re-analysis of the deposited data

How the results depend on the processing

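The count of 367 offset peaks stayed within 1.5 times under each alternative except the stricter list of stronger peaks (198) and a range of up to 2000 bp (589). RefSeq starts also gave 367. In the stricter list the upstream share was 74.7%, the median signal 188.5, the share recovered by both replicates 94.9%, GC content 37.8%, the DRE share 1.52%, the GAGA share 33.3% and the TAATTA share 6.06%. With offset from over 200 bp the upstream, GAGA and TAATTA shares were 73.0%, 33.3% and 8.56%. From over 350 bp the upstream share was 61.8%, the signal 133.4, recovery 66.7%, GC content 39.1%, the DRE share 0% and the GAGA share 35.8%. Up to 2000 bp the upstream share was 59.6%, the signal 129.8, recovery 64.2%, the GAGA share 30.1% and the TAATTA share 8.83%. With starts of every biotype, the signal was 134.5, the GAGA share 31.9%, the TAATTA share 7.37% and the share near another biotype 0%, by construction. With diverging pairs kept in, the DRE, GAGA and TAATTA shares were 1.26%, 32.4% and 7.29%. The interval centre gave GAGA and TAATTA shares of 32.5% and 7.59%. Motif windows of 50 bp gave 0.272%, 17.2% and 2.72% for DRE, GAGA and TAATTA, and 150 bp gave 47.7% and 11.99% for the last pair. Recovery in any listed region was 95.9%. Each replicate alone gave 379 to 392 peaks, 65.8% to 69.7% upstream, with a signal of 64.7 to 67.4 on the replicates' own scale. Of these, 2.90% to 3.83% were near another biotype, and GC content was 38.3% to 38.8%. The DRE, GAGA and TAATTA shares were 0.510% to 0.792%, 32.9% to 33.0% and 7.92% to 8.16%. In 65.6% to 68.3% the summit lay in a strongest region of the other replicate. Each region is in its own replicate's list, so this is a different measure from recovery by both. The limit was 1.5 times for the number of peaks and 1 replicate SD for the other values. By it, 49 alternative values moved beyond the limit and 59 stayed within it, and the replicate SDs of the motif shares were small. No paired analysis was possible because the series holds 1 group. The read depth is unknown, and so is what it limits.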

Other observations

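All words of 8 and 10 letters were counted at offset summits and at lower-ranked offset candidates, on both strands within 100 bp, and ordered by the difference in share. The words named here were chosen after their values were seen, and they carry no test. Most leading 8-letter words held only A and T, where GC content also differed between the sets (medians of 38.3% and 51.2%). The first with mostly G and C was CACAGTGG, at 27 offset summits (7.36%) and 4.44% of all reproducible summits. Core summits had it in 5.05%, diverging-pair summits in 1.44% and lower-ranked offset candidates in 1.98%. In the offset regions of replicates 1 and 2 it was at 10.03% and 6.38%. Its longer form CCCACTGTGC, read on the other strand, was at 12 offset summits (3.27%). The share was 1.98% at core summits, 0.289% at diverging-pair summits, 1.52% over all reproducible summits and 0.496% at lower-ranked offset candidates. The 12 included summits of Rtnl1, CG31635 and bin3, the second ph-p summit and the second mrj summit.

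The second 10-letter word was TAGGTGGCGC, at 10 offset summits (2.72%), 1.08% of core summits, 0.144% of diverging-pair summits, 1.15% of all reproducible summits and 0.129% of lower-ranked offset candidates. The replicates had it at 3.43% and 2.04% of their offset regions. It holds the core of the site read by the insulator protein CTCF in Drosophila, stated as background. The 10 peaks were those of CG14762, dco, jp, CG43658, Atpalpha, CG12986, Sqor, nej, wgn and CG13306, with combined signals of 737 down to 92.8, and 9 of them were upstream of the TSS. Whether CTCF was present at these places was not tested.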
